A study of Homo sapiens with 8 samples.

Results

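Dense clusters of replication origins were examined in HCT116 cells, a human colon cancer line. An origin here is an interval of the deposited list of WT origins on hg38, and a dense cluster is a run of 5 or more consecutive origins in which each gap to the next origin is 10 kb or less. On chromosomes 1 to 22, 2584 of 29908 WT origins lay in such runs (8.64%), and they formed 410 runs. The members were selected on the measured positions of the WT origins alone. Spacing, run length, and the calling of an origin in WT cells are therefore given as a description, with no test.

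Origins were mapped by SNS-seq, in which short nascent strands, the short new DNA made where replication has just started, are enriched by size and by lambda exonuclease digestion and then sequenced. The 8 samples were 2 biological replicates each of HCT116 p53−/− cells with intact ORC genes (WT) and of *ORC1Δ*, *ORC2Δ*, and *ORC5Δ* cells, in which ORC1, ORC2, or ORC5 was knocked out with CRISPR–Cas9 in the same p53−/− background. No drug treatment is named for the SNS-seq samples, and how many clones stand for a line is not given in the sources used here. The authors kept the peaks found in both replicates of a line as its origins and merged the replicates before counting reads, so the files used here give no value per replicate and no difference between lines was tested. Wilson intervals on shares reflect how many origins were sampled, and intervals on folds reflect read counting alone. Reads amplified by PCR are not independent molecules, so the latter are lower limits of the error.

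ORC, the origin recognition complex, binds DNA in G1 and helps to load the MCM2–7 helicase, and a part of the loaded helicases fires in S phase. In human cells, initiation is often spread over zones that hold several possible sites, and origins are frequent near CpG islands, transcription start sites, and sequences that can form a G-quadruplex, a stacked structure of G-rich DNA. A run of close origins is 1 way in which such a zone can appear in origin maps of a cell population.

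In each of the 4 lists, every origin on chromosomes 1 to 22 had another origin nearby. The largest distance to the nearest neighbour was 26017 bp in WT, and 25683, 21839, and 20458 bp in *ORC1Δ*, *ORC2Δ*, and *ORC5Δ* cells, respectively. In WT, 475 gaps fell in the last kb below that distance and 147 in the first kb above it. The lists thus hold no origin without a neighbour in that distance, and the limit differed between the lines. The gaps within runs lie under all 4 limits. Of the 2949 other WT origins whose nearest neighbour lay over 20 kb away, 21.6% had a counterpart in all 3 knockout lists, compared with 60.03% at 10 to 20 kb, so the choice of comparison moves the shares below. The 27324 WT origins outside runs are therefore shown both as a whole and as the 15480 whose nearest neighbour lay within 10 kb.

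The sequences below are shown because they lie in members described further on for their reads or, at SHANK1, for a common motif. Whether reads depend on these stretches was not tested. They are the plus strand of hg38, 5′ to 3′. Capitals mark the first bases of the stretch, as many as the shift at which it was compared with itself. The first 4 lie in members that were higher than WT in every knockout line, and the next lies in a member near the end of chromosome 17 that had fewer scaled reads in every knockout line, past 1.5-fold in *ORC1Δ* and *ORC2Δ* cells.

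STAP2 intron, chr19:4335159-4335285: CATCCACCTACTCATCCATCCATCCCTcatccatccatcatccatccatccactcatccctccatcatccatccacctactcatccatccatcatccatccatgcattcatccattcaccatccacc

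Near the PRR33 start site, chr11:1893394-1893497: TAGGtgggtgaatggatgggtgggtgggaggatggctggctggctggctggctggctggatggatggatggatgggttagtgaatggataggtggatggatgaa

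Intergenic, chr19:415317-415420: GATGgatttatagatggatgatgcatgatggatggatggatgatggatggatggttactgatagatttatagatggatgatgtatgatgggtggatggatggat

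SLC9A3 intron, chr5:515736-515889: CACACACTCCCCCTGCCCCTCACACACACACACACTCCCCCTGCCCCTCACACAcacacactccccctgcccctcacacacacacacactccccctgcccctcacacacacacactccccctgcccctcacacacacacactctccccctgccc

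Intergenic, chr17:83103785-83103916: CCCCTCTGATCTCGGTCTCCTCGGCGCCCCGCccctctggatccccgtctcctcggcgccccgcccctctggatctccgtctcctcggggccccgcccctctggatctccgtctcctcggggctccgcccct

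Next come stretches of a MUC2 member, from the run with the highest summed log2 fold in *ORC1Δ* cells, and of a CSNK1G2 member that held few *ORC2Δ* reads.

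MUC2 intron, chr11:1106255-1106400: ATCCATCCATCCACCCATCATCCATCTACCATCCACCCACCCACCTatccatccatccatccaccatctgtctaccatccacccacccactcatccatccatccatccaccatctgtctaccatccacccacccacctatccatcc

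CSNK1G2 intron, chr19:1967916-1968069: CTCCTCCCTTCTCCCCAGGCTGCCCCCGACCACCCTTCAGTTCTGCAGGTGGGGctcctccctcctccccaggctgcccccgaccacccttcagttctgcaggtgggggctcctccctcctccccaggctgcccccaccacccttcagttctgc

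The last shows the G-quadruplex motif that most members contain, on the plus strand at SHANK1. Here capitals mark the motif, which is 4 runs of at least 3 G with 1 to 7 bases between them.

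SHANK1 start region, chr19:50718763-50718868: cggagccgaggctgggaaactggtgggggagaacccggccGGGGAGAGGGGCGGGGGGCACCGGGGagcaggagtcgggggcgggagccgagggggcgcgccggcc

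Most runs were short. Of the 410 runs, 193 held 5 members, 105 held 6, and 50 held 7, while 31 runs of 10 or more held 378 members, up to 23 in a run. A run spanned a median of 27.3 kb (range 8.71 to 93.9 kb). Together the runs covered 12.2 Mb, or 0.423% of chromosomes 1 to 22, and the members themselves covered 12.99% of those spans. The median gap between members was 5032 bp, compared with 14458 bp between all neighbouring WT origins. Gaps under 500 bp made up 173 of 2174 gaps in runs (7.96%) and 2.82% of all WT gaps.

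**Figure D1:**
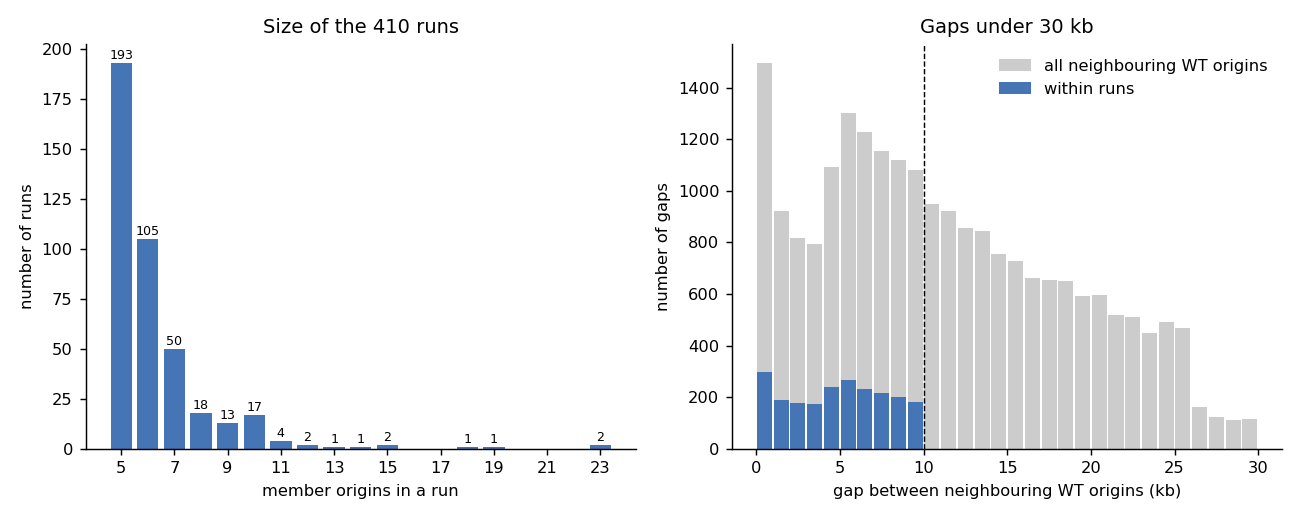
Left, the number of runs (y axis) by the number of member origins in a run (x axis), with each count above its bar. Right, the number of gaps under 30 kb per kb of gap length for all neighbouring WT origins (grey) and within runs (blue), with the 10 kb limit dashed; the runs stop at 23 members, and the grey bars drop after the limit of 26017 bp of the WT list.

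The limits of the rule cut through a continuous range. A further 464 runs held 4 origins with gaps of 10 kb or less and stayed outside. The smallest gap over the limit was 10001 bp, beside a run of 4 at ZNF707, MAPK15, and FAM83H, and another run of 4 at SRCIN1 (chr17:38532181-38548415) missed its next origin at 10011 bp. Just inside stood the 5 members at SIGIRR and ANO9 (chr11:413491-442475), with a largest gap of 9980 bp, and the 5 at C1QTNF12 and UBE2J2 (chr1:1240371-1258748), with 9969 bp.

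Chromosome 19, which carries 25.2 protein-coding genes per Mb, held 594 members in 86 runs, 22.99% of all members and 24.5% of its own WT origins. Chromosome 17 followed with 272 members in 46 runs and chromosome 1 with 183 members in 30 runs, while chromosome 15 held a single run of 5. Members also lay toward chromosome ends, with 43.1% within 5 Mb of an end (95% Wilson interval 41.18% to 44.99%), compared with 19.6% of the other WT origins (19.11% to 20.05%). The spans held 33.5 protein-coding start sites per Mb, compared with 6.53 over chromosomes 1 to 22, although 190 runs held no start site and 67 overlapped no protein-coding gene. In all, 89 runs lay wholly inside a single gene.

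**Figure D2:**
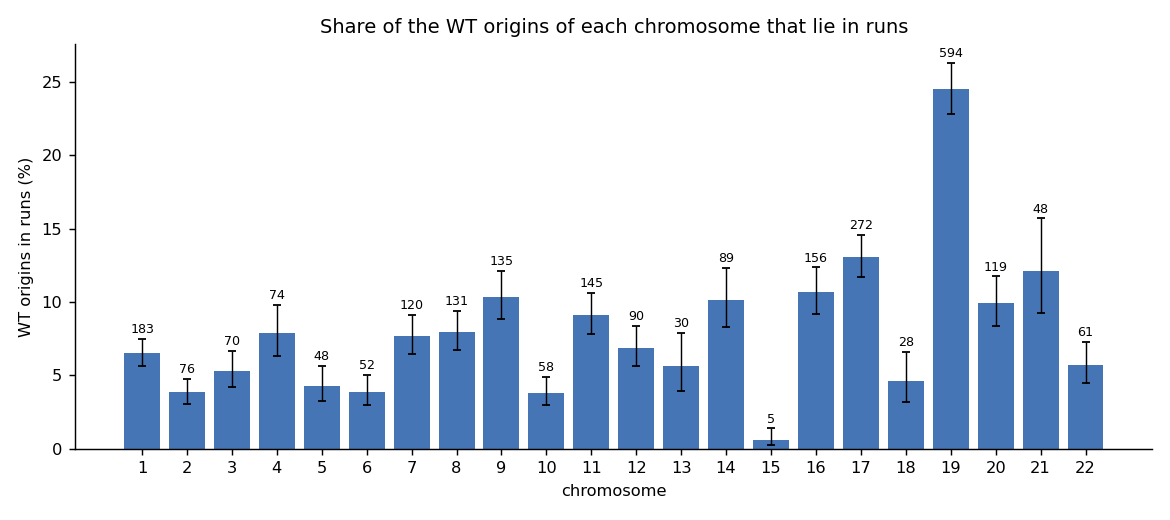
Share of WT origins that lie in runs (y axis, percent) on each of chromosomes 1 to 22 (x axis), with 95% Wilson intervals and the number of members above each bar. Chromosome 19 reaches 24.5%, chromosome 17 13.1%, and chromosome 15 0.595%.

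Start sites in runs numbered 407 of 18764 protein-coding genes (2.17%). Of 248 zinc finger genes on chromosome 19, transcription factors that sit in large arrays, 5 had their start site in a run (2.02%: ZNF358, ZNF524, ZNF574, ZNF784, and ZNF865). Among 39 HOX genes, the body-plan regulators, HOXB2 had its start site in a run (2.56%), and 0 of 53 clustered protocadherins and 0 of 74 replication-dependent histone genes did. Of 73 cytosolic ribosomal protein genes, RPL18, RPL36, and RPS16 had their start site in a run, and of 14 genes of colon epithelium, the mucins MUC1 and MUC5B did. The body of MUC2, another of these, overlapped a run without its start site. None of the 28 genes of origin licensing and firing had its start site in a run, among them ORC1, ORC2, and ORC5. All these lists are short beside a share of 2.17%, and no difference from that share was tested.

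Members were rich in G and C. Their median GC content was 60.1%, compared with 54.3% for the other WT origins. The sequence between members was also GC-rich, at a median of 55.1% over runs against 41.0% for chromosomes 1 to 22, and in 370 of 410 runs the members exceeded the sequence between them. Absolute GC skew, the imbalance of G and C on a strand, was close in both sets, with medians of 0.350 and 0.340. Median widths were 542 and 524 bp.

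Among the marks that origins are known for, a CpG island overlapped 652 members (25.2%, 23.6% to 26.9%), compared with 16.3% of the other WT origins and 17.4% of those with a neighbour within 10 kb. Of the members, 448 lay within 1 kb of a protein-coding start site (17.3%, 15.9% to 18.8%), compared with 13.8% and 14.5%. A G-quadruplex motif was present in 1753 members (67.8%, 66.0% to 69.6%), compared with 55.3% and 56.4%. In windows of equal length, 500 bp around the midpoint, the motif was found in 65.3% of members and 52.3% of other WT origins, against 53.4% of all WT origins. Protein-coding exons overlapped 28.5% of members and 16.6% of the others. GC content moved with the motif between the sets, and its part in these shares was not tested.

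Tandem repeats, 100-bp stretches that match themselves at 90% or more after a shift of up to 60 bases, were found in 268 members (10.4%, 9.25% to 11.6%), compared with 5.92% of the other WT origins and 6.70% of those with a close neighbour. Equal windows gave 9.60% and 5.34%, against 5.71% of all WT origins. Sequence that cannot be placed uniquely had close shares, with over 50% of 50-mers (stretches of 50 bases) repeated in hg38 in 3.37% of members and 3.12% of the others. How reads with several matches were handled is not given in the sources used here. Neighbouring members had G in excess over C on the same strand in 56.7% of 2174 pairs (54.6% to 58.7%), compared with 52.7% of other neighbouring pairs. In 19 runs all members had more G than C on the plus strand, and in 20 runs all had more C than G.

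The pair of runs with the most members lay in unlike DNA. The 23 members at chr19:50637399-50729402 stretched over 92.0 kb and the genes SYT3, C19orf81, SHANK1, and CLEC11A. SHANK1 encodes a scaffold of excitatory synapses, and 17 of the members fell in its exons, introns, or start region. In this run, 8 members overlapped a CpG island, 21 held a G-quadruplex motif, and 19 had a counterpart in all 3 knockout lists. Another 23 members, at chr18:14256194-14334078, lay within the span of the lncRNA gene ENSG00000283294 and no protein-coding gene. There 0 members overlapped a CpG island, 16 held a G-quadruplex motif, and on average 28.5% of the 50-mers in members were repeated in hg38.

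Among further long runs, 18 members covered ADGRB1, an adhesion receptor, and 15 covered the Ly6 family genes SLURP1, LYPD2, LYNX1, SLURP2, and LY6D, both on chromosome 8. Another 15 members (chr16:1159108-1240089) lay at CACNA1H, which encodes a voltage-gated calcium channel, and the mast cell tryptase genes TPSG1 and TPSB2. These members were GC-rich, at a median of 66.7%. Their reads were lower in each knockout line, with log2 folds of the summed reads of −0.29, −0.14, and −0.11 in the *ORC1Δ*, *ORC2Δ*, and *ORC5Δ* lines, beside medians of −0.23, −0.04, and −0.02 for the other WT origins within the surrounding 5 Mb.

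The most closely packed runs were short. At KDELR1 and GRIN2D on chromosome 19, a retrieval receptor of the secretory pathway and a glutamate receptor subunit, 5 members lay within 8.71 kb. At CFAP61 (chr20:20354939-20364341), 5 lay within 9.40 kb. At chr16:34571530-34595289, near the centromere, 13 members lay within 23.8 kb of AT-rich DNA (36.1% GC) that overlapped no protein-coding gene, and 50.0% of their 50-mers were repeated in hg38. In that run WT held 549 RPM (reads scaled to the total reads of that line in the table) and *ORC1Δ* 706 RPM, WT 528 and *ORC2Δ* 594, and WT 509 and *ORC5Δ* 506.

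Whether clustered origins are kept in the absence of an ORC subunit was read from the lists, with an overlap of 1 bp counted as a counterpart. *ORC1Δ* cells had a counterpart for 2108 of 2584 members (81.6%, 80.04% to 83.03%), *ORC2Δ* cells for 2357 (91.2%, 90.1% to 92.2%), and *ORC5Δ* cells for 2445 (94.6%, 93.7% to 95.4%). The other WT origins with a neighbour within 10 kb had 72.3%, 82.3%, and 87.6%, and all other WT origins 70.1%, 77.3%, and 81.4%. The order of the lines followed the size of their lists (33245, 37369, and 40918 origins), and the part of list size and read depth in it was not tested. All 3 knockout lists held a counterpart of 2051 members (79.4%, 77.8% to 80.9%), compared with 64.8% (64.1% to 65.6%) and 58.6% (58.0% to 59.2%). Conversely, 88 members (3.41%) had no counterpart in any list, compared with 6.56% of other WT origins with a close neighbour and 8.65% of all other WT origins.

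Members held more WT reads, a median of 175 per row of the *ORC1Δ* table compared with 129 for the other WT origins, and WT reads moved with these shares. A row can be wider where *ORC1Δ* cells also have a peak, so WT reads and counterparts are not independent measures. Under 100 WT reads, 31.9% of members (26.5% to 37.8%), 28.6% of other origins with a close neighbour (27.2% to 30.2%), and 25.99% of all others (25.01% to 27.01%) had a counterpart in all 3 lists. At 100 to 150 reads the shares were 64.4%, 59.9%, and 56.8%, and at 300 or more 99.7%, 93.5%, and 88.0%. In each bin under 200 reads the intervals of members and of other origins with a close neighbour overlapped, and from 200 reads they did not (95.6% and 90.1% at 200 to 300). The intervals treat origins as independent, although members of a run are neighbours, so their overlap is a description and no test. For *ORC1Δ* cells alone, members were not above all other WT origins at low reads, with 36.97% and 39.5% under 100 reads and 68.6% and 70.8% at 100 to 150. Across GC content the share for members stayed between 77.7% and 81.8%, whereas for the other WT origins it ranged from 44.3% under 45% GC to 66.4% at 60% to 65% GC.

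**Figure D3:**
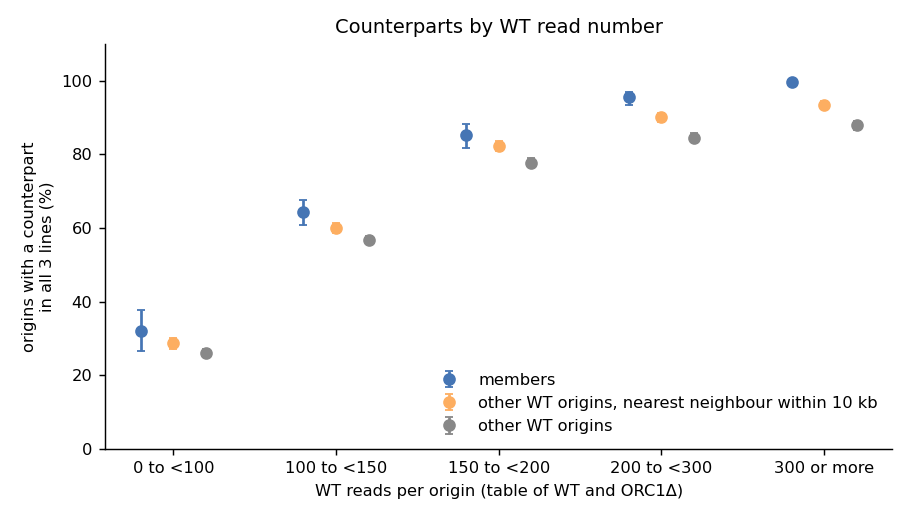
Share of origins with a counterpart in all 3 knockout lists (y axis, percent) by the number of WT reads (x axis) for members, for other WT origins whose nearest neighbour lies within 10 kb, and for all other WT origins, with 95% Wilson intervals. All 3 sets go from between 25.99% and 31.9% under 100 reads to between 88.0% and 99.7% at 300 reads or more. WT reads are counted per row of the *ORC1Δ* table, and a row can be wider where *ORC1Δ* cells have a peak.

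Intervals overlapped between positions within a run and between run sizes, but differences were not tested. The outermost members had counterparts in all 3 lists in 80.0% (77.13% to 82.6%) and the inner ones in 79.1% (77.1% to 80.9%). Runs of 5 had 79.1%, runs of 6 78.4%, runs of 7 to 9 78.1%, and runs of 10 or more 83.9% (79.8% to 87.2%). In 104 runs every member was found in all 3 lists, among them the 13 at chr16:34571530-34595289 and the 10 at SPTBN4, SHKBP1, and LTBP4 (chr19:40570739-40614559). Runs were also ranked by the number of members with any counterpart, which places small runs lowest because they hold few members. Found in at least 1 list were 3 of 5 members at RIMS3 (chr1:40654068-40669952), inside ABR (chr17:1069644-1090617), and at chr8:95211770-95239093. At EML3, ROM1, B3GAT3, and GANAB (chr11:62603575-62633741) they were 3 of 6.

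A member without a counterpart was not without reads. The 476 members without an *ORC1Δ* counterpart had a median of 110 WT and 87 *ORC1Δ* reads, a median log2 fold of −0.41 in RPM. The 227 without an *ORC2Δ* counterpart had 102 and 91 reads (log2 fold −0.40), and the 139 without an *ORC5Δ* counterpart 100 and 104 reads (log2 fold −0.30). Of these, 128 (26.9%), 37 (16.3%), and 5 (3.597%) were lower by 1.5-fold or more. Among members with a counterpart in the line the shares were 2.37%, 0.806%, and 0.0409%, and among all rows 3.95%, 3.61%, and 0.682%. Absence of a knockout peak selects for low knockout reads, so higher shares are favoured by the choice. The 88 members without any counterpart had medians of 76.5, 85.5, and 97.5 reads in *ORC1Δ*, *ORC2Δ*, and *ORC5Δ* cells.

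The same rule applied to the knockout lists gave 409 runs with 2503 origins in *ORC1Δ*, 652 runs with 4293 origins in *ORC2Δ*, and 761 runs with 4985 origins in *ORC5Δ* cells, out of 33245, 37369, and 40918 origins. Of the 410 WT runs, 239 (58.3%) overlapped an *ORC1Δ* run, 332 (81.0%) an *ORC2Δ* run, and 357 (87.1%) an *ORC5Δ* run. Conversely, 241 *ORC1Δ* runs (58.9%), 332 *ORC2Δ* runs (50.9%), and 353 *ORC5Δ* runs (46.4%) overlapped a WT run. A run of every knockout list was found at 217 WT runs and a run of none at 25. When the gap limit was shortened in proportion to the number of origins in each list, 44.4%, 53.7%, and 45.4% of WT runs overlapped a knockout run.

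Few origins of a knockout list inside the spans lacked a WT counterpart. In *ORC1Δ* cells, 107 origins without a WT counterpart lay in WT runs (8.80 per Mb, compared with 4.14 outside), in *ORC2Δ* cells 150 (12.3 and 4.82 per Mb), and in *ORC5Δ* cells 157 (12.9 and 5.62 per Mb). They made up 0.895%, 1.08%, and 0.967% of such origins. With these included, *ORC1Δ* cells had 2213 origins in the spans, *ORC2Δ* cells 2487, and *ORC5Δ* cells 2591, compared with the 2584 members. Since the spans were chosen for dense WT origins, a lower number in another list is favoured by the choice. Knockout origins per WT origin were 0.856, 0.962, and 1.00 inside the runs and 1.11, 1.25, and 1.37 over chromosomes 1 to 22. The *ORC1Δ* list held fewer origins than WT in 256 runs and more in 32. For *ORC2Δ* these numbers were 146 and 75, and for *ORC5Δ* 101 and 96.

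Reads in most members were close to WT. Each table sets WT against a knockout line, and the members took up 2566 rows of the *ORC1Δ*, 2550 of the *ORC2Δ*, and 2559 of the *ORC5Δ* table. Some rows join neighbouring members, and a row can be wider than the WT origin it holds. Median widths of member rows were 582, 608.5, and 606 bp for *ORC1Δ*, *ORC2Δ*, and *ORC5Δ*, respectively. The 3 tables share the WT samples, so their folds are not independent of each other, nor of the calling of the origin in WT. WT reads fell into member rows in 9.27% of the reads of the *ORC1Δ* table, and *ORC1Δ* reads in 8.60%. In the other tables the shares were 9.07% and 8.96% for WT and *ORC2Δ*, and 8.76% and 8.59% for WT and *ORC5Δ*. Total counts per line and table ranged from 6416892 to 8523971.

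In *ORC1Δ* cells, 33 member rows were 1.5-fold or more higher than WT and 178 lower. That is 1.29% and 6.94%, compared with 7.00% and 3.95% of all 41785 rows of the table and 1.94% and 5.30% of the rows of other WT origins. In *ORC2Δ* cells, 21 were higher and 56 lower (0.824% and 2.20%), compared with 4.62% and 3.61% of all rows and 1.32% and 5.53% of other WT rows. In *ORC5Δ* cells, 11 were higher and 6 lower (0.430% and 0.234%), compared with 2.05% and 0.682% of all rows and 0.547% and 1.11% of other WT rows. The share called lower was below that of other WT rows in *ORC2Δ* and *ORC5Δ* cells, where the difference was not tested and members held more WT reads. In *ORC1Δ* cells the share was above that of other WT rows, but this order turned after correction for GC content (2.14% of members and 3.97% of other WT rows), after subtraction of the local median (1.95% and 2.23%), and with gaps of 5 kb or less (4.74% and 5.45%). The share called higher in *ORC1Δ* cells was below that of other WT rows, and this order turned as well, after correction for GC content (1.52% and 1.47%), after subtraction of the local median (3.31% and 3.16%), and with gaps of 20 kb or less (2.04% and 1.82%). With gaps of 20 kb or less the order of the higher shares also turned in *ORC2Δ* (1.29% and 1.27%) and *ORC5Δ* cells (0.622% and 0.498%). In *ORC5Δ* cells it turned with runs of 8 or more as well (0.630% and 0.535%). At these depths counting error alone can carry some rows past 1.5-fold. All rows include those without a WT origin, of which 19.8% were higher and 0.218% lower in *ORC1Δ*, 11.8% and 0.129% in *ORC2Δ*, and 4.83% and 0.0431% in *ORC5Δ* cells.

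Median log2 folds of member rows were −0.17, −0.05, and −0.04 in *ORC1Δ*, *ORC2Δ*, and *ORC5Δ* cells, respectively, compared with −0.11, −0.11, and −0.06 for other WT rows. GC content moved with the fold in *ORC1Δ* cells. There the median for members fell from 0.15 below 45% GC to −0.30 at 65% or more, and for other WT rows from −0.01 to −0.34. After the running median over GC content was taken off, members stood at −0.01, 0.01, and −0.02 and other WT rows at −0.08, −0.06, and −0.05, so the *ORC1Δ* difference between the sets turned. After the median of the other WT rows within a 5 Mb window was taken off, members stood at −0.02, 0.03, and 0.01. The sign in *ORC2Δ* and *ORC5Δ* cells therefore depended on these corrections.

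**Figure D4:**
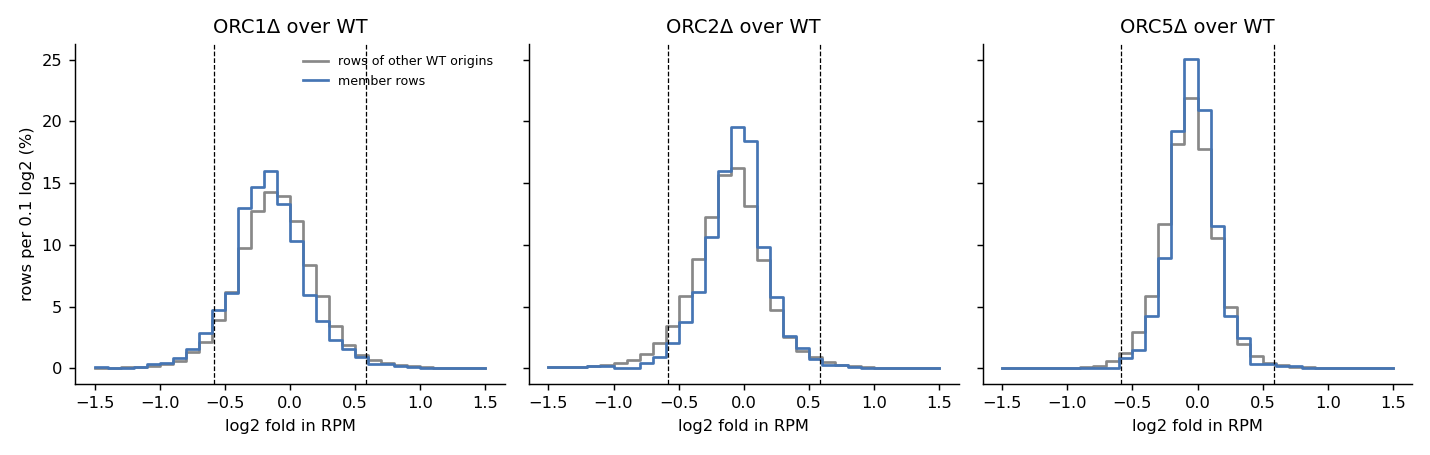
Share of rows per 0.1 log2 unit (y axis, percent) by log2 fold in RPM over WT (x axis) for member rows (blue) and rows of other WT origins (grey) in *ORC1Δ*, *ORC2Δ*, and *ORC5Δ* cells. Dashed lines mark 1.5-fold, and the member distributions centre at −0.17, −0.05, and −0.04.

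Over whole runs, the log2 fold of the summed reads ranged from −1.12 to 0.46 in *ORC1Δ*, from −1.10 to 0.56 in *ORC2Δ*, and from −0.33 to 0.26 in cells lacking ORC5. No run was 1.5-fold higher in any line, 4 were 1.5-fold lower in *ORC1Δ* and 4 in *ORC2Δ* cells, and 0 in *ORC5Δ* cells. These calls depended on the processing. Correction for GC content left 2 lower and made 1 higher in *ORC1Δ* cells, and left 3 lower and made 1 higher in *ORC2Δ* cells. Subtraction of the local median left 0 lower and made 2 higher in *ORC1Δ* cells, and left 1 lower in *ORC2Δ* cells. In 300, 373, and 371 of 410 runs the members' folds lay on both sides of 0. The median range within a run was 0.63, 0.53, and 0.40 on the log2 scale. Counting error is part of these values and was not separated from differences between members.

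Among runs with at least 500 reads, MUC2 had the highest fold in *ORC1Δ* and in *ORC5Δ* cells and the next to highest in *ORC2Δ* cells. MUC2 encodes the gel-forming mucin of the intestine, and its 5 members (chr11:1094329-1113384) were all found in the 3 knockout lists. Summed reads were 145 RPM in WT and 199 in *ORC1Δ*, 140 in WT and 183 in *ORC2Δ*, and 134 in WT and 161 in *ORC5Δ* cells. The log2 folds were 0.46 (95% counting interval 0.33 to 0.58), 0.39 (0.27 to 0.51), and 0.26 (0.14 to 0.38), while the other WT origins within the surrounding 5 Mb had medians of −0.21, −0.04, and −0.03. The 4 members inside the gene had positive folds in every line, and the fifth, beyond its end, had −0.71, −0.24, and −0.28. On average, 21.7% of the 50-mers in the members of this run were repeated in hg38.

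At MICALL2 (chr7:1442402-1469802), a regulator of actin and of membrane traffic, all 6 members were lower in *ORC1Δ* cells. Summed reads were 239 RPM in WT and 110 in *ORC1Δ*, 242 in WT and 219 in *ORC2Δ*, and 228 in WT and 208 in *ORC5Δ* cells. The log2 fold in *ORC1Δ* cells was −1.12 (−1.25 to −0.99), with single members between −0.89 and −1.69, while *ORC2Δ* and *ORC5Δ* cells had −0.14 and −0.13. The surrounding 5 Mb were also lower in *ORC1Δ* cells, with a median of −0.57. On the same chromosome arm, the 5 members at chr7:466373-481678, in no protein-coding gene, had −0.74, 0.26, and 0.02 in *ORC1Δ*, *ORC2Δ*, and *ORC5Δ* cells, respectively, beside a surrounding median of −0.62 in *ORC1Δ* cells.

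At CSNK1G2, a casein kinase gene, and BTBD2 (chr19:1958296-1993261), the 7 members were lower in *ORC2Δ* cells. Summed reads were 200 RPM in WT and 93.0 in *ORC2Δ* cells, a log2 fold of −1.10 (−1.24 to −0.97), while *ORC1Δ* cells had −0.42 and *ORC5Δ* cells −0.12. The surrounding medians were −0.17, −0.02, and −0.01. A pair of adjacent members had the lowest folds. The member at chr19:1959366-1959851 had 168 WT and 29 *ORC2Δ* reads (log2 fold −2.77), and the member at chr19:1967717-1968303, from which a stretch is printed above, had 150 and 17 (−3.37). That stretch matched itself at 83%, below the 90% used for tandem repeats. The same members had 164 and 102 reads in *ORC1Δ* and 227 and 208 in *ORC5Δ* cells. In these members 26.1% and 65.1% of 50-mers were repeated in hg38.

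At TMEM255B and GAS6 (chr13:113811075-113860969), where GAS6 encodes a ligand of TAM receptor kinases, 9 members had a log2 fold of −0.70 in *ORC2Δ* cells, and the surrounding median was −0.82. Near the start of chromosome 2 (chr2:9723978-9749842), 5 members outside protein-coding genes had 0.56 (0.44 to 0.68) in *ORC2Δ* cells, beside a surrounding 0.32, and 0.12 and 0.16 in *ORC1Δ* and *ORC5Δ* cells. In *ORC5Δ* cells the lowest folds were −0.33 at DIP2C (chr10:661546-691377), where the surrounding median was −0.30, and −0.31 at EML3, ROM1, B3GAT3, and GANAB. The latter run had −0.39 and −0.42 in *ORC1Δ* and *ORC2Δ* cells, beside surrounding medians of −0.22, −0.13, and −0.06 in the 3 lines. The 6 members inside HMCN2 (chr9:130329648-130361063) had 0.11, 0.20, and 0.20. DNA copy number of these regions was not analysed here.

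**Figure D5:**
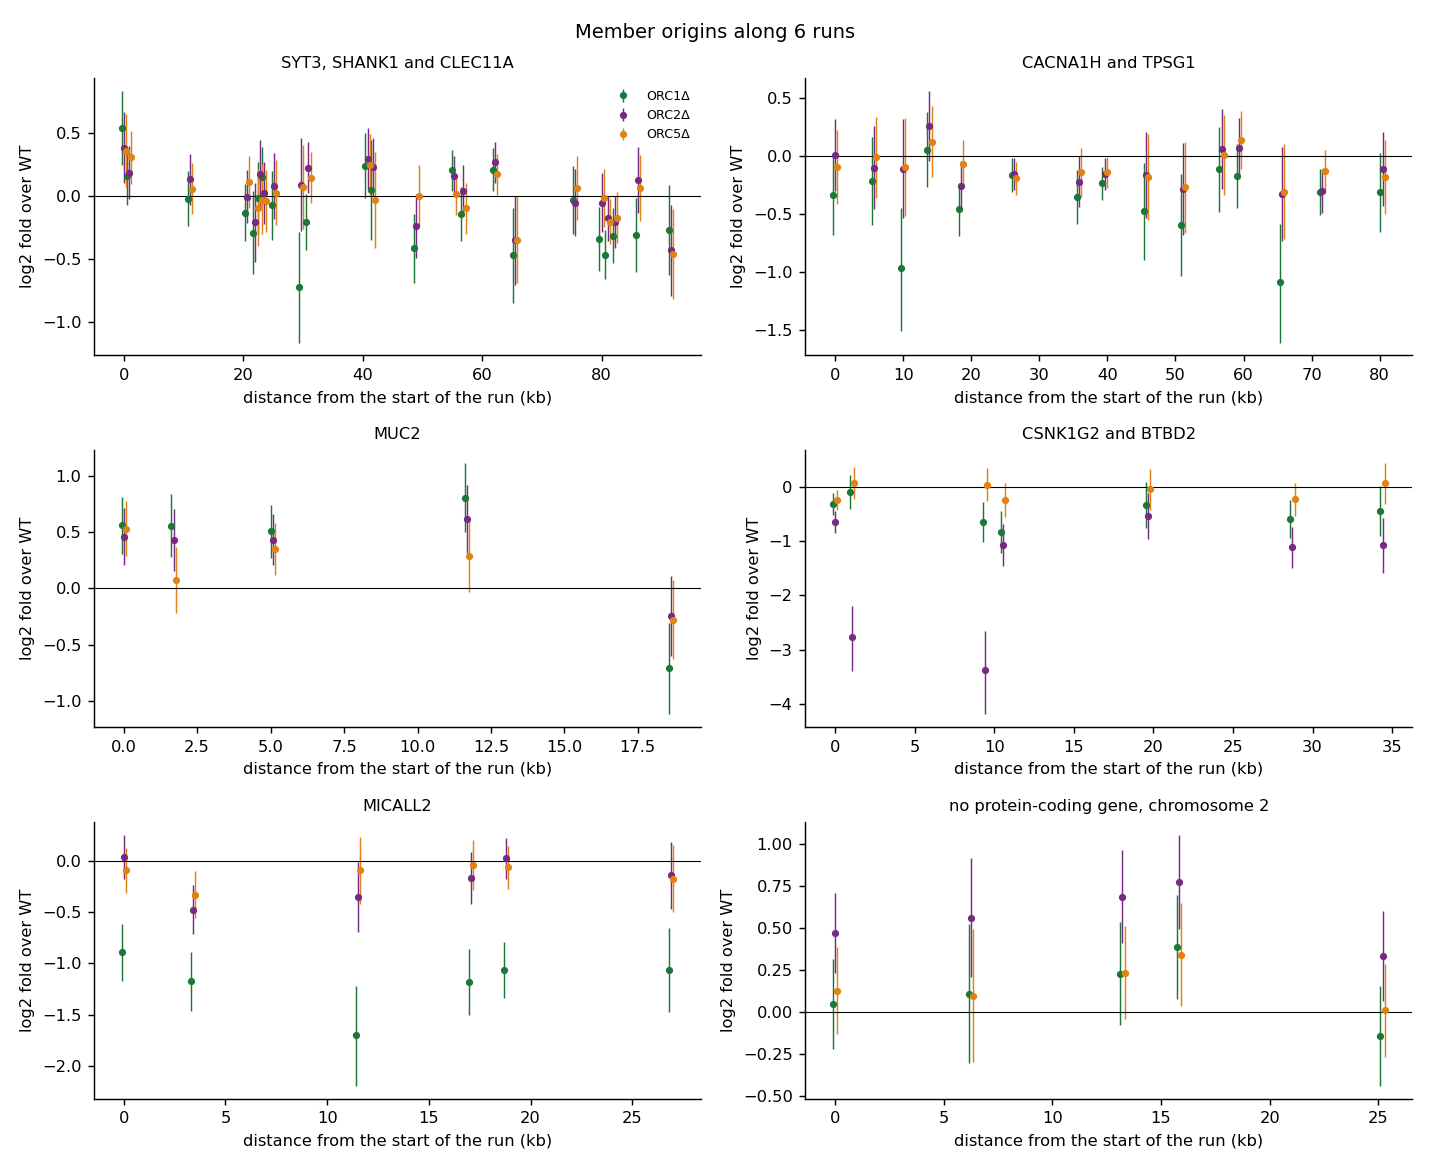
Log2 fold over WT (y axis) of each member by its distance from the start of the run in kb (x axis) in 6 runs, with *ORC1Δ*, *ORC2Δ*, and *ORC5Δ* cells in separate colours and bars for 95% counting intervals. All *ORC1Δ* points at MICALL2 lie below 0, a pair of *ORC2Δ* points at CSNK1G2 lie at −2.77 and −3.37, and at MUC2 the last point of each line is below 0 while the others are above.

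Single members that were 1.5-fold higher in at least 1 line numbered 42 of 2584 and lay in 38 runs. Of the 27324 other WT origins, 649 were higher in at least 1 line. Of the 42 members, 26 were higher in exactly 1 line, 8 in 2, and 8 in all 3. The member in an intron of MUC4, a membrane mucin, had 156 WT and 309 *ORC1Δ* reads, 164 and 320 *ORC2Δ* reads, and 154 and 319 *ORC5Δ* reads, with log2 folds of 0.93, 0.73, and 0.74. The member in an intron of STAP2, a signalling adaptor (chr19:4335042-4335436), had 196 WT and 392 *ORC1Δ* reads, 196 and 428 *ORC2Δ* reads, and 194 and 401 *ORC5Δ* reads (0.94, 0.89, and 0.74). Its reads were counted over a wider row (chr19:4334314-4335560 for *ORC1Δ* cells), so they are not those of the 395-bp origin alone. An intergenic member on chromosome 19 had 112 and 248, 111 and 266, and 109 and 228 reads (1.09, 1.03, and 0.76). At all 3 members the counting intervals of the folds lay above 0 in each line. These members were chosen for high folds in every line, so this is favoured by the choice.

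The other 5 members higher in all 3 lines lay near PRR33 (log2 folds 0.88, 0.91, and 0.60), in an intron of SLC9A3, a sodium–hydrogen exchanger of intestinal epithelium (0.77, 0.64, and 0.67), in an exon of NFILZ (0.74, 0.87, and 0.69), at chr19:414845-415444 (0.84, 0.76, and 0.65), and in an intergenic stretch of chromosome 20 (0.82, 0.79, and 0.60). All 8 were origins in every knockout list. In the 4 of these printed above, the stretch matched itself at 65% to 99% after a shift by the length in capitals, so SLC9A3 alone passed the 90% used for tandem repeats. Of the 27324 other WT origins, 122 were higher in all 3 lines.

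The 42 higher members had a median GC content of 51.9% and a median absolute GC skew of 0.771, and 21.4% held a tandem repeat. The 219 members that were 1.5-fold lower in at least 1 line lay in 158 runs and had a GC content of 64.5%, a skew of 0.267, and tandem repeats in 10.0%. These traits of changed WT origins outside runs are not given here, nor is the number of those origins lower in at least 1 line. Whether the traits are particular to runs was not tested. In *ORC1Δ*, *ORC2Δ*, and *ORC5Δ* cells, 6.94%, 2.20%, and 0.234% of member rows were lower. Other WT rows had 5.30%, 5.53%, and 1.11%, and all rows 3.95%, 3.61%, and 0.682%. The *ORC1Δ* order of members and other WT rows turned after correction for GC content, as given above. The word ATCCATCC, chosen after the sequences were seen and searched on both strands in windows of 500 bp around the midpoint, was found in 23 of the 42 higher members (54.8%, 39.9% to 68.8%), in 4.29% of the other members, and in 5.08% of all WT origins. Of 649 higher WT origins outside runs, 42.2% held it. CCACCACC was found in 11 of the 42 (26.2%) against 12.04% of all WT origins, and GTGTGTGT in 5 (11.9%) against 5.81%. Members as a whole held ATCCATCC in 5.11%, close to the share of other WT origins (5.07%).

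Lower members numbered 199 in exactly 1 line, 19 in 2, and 1 in all 3, and of the 27324 other WT origins 48 were lower in all 3. The member lower by 1.5-fold in all 3, within 1 kb of the start site of LIM2, a lens fibre membrane protein (chr19:51387403-51387791), had 100 WT reads in each table and 65, 57, and 75 reads in *ORC1Δ*, *ORC2Δ*, and *ORC5Δ* cells (log2 folds −0.68, −1.04, and −0.72). The member at chr17:83103648-83104138 had 265 WT reads and 136, 195, and 224 knockout reads (−1.02, −0.68, and −0.55). The member in an intron of CACNA2D2, a calcium channel subunit gene (chr3:50374033-50374624), had 163 WT reads and 115, 128, and 138 knockout reads (−0.56, −0.58, and −0.55). None of these 3 had a counterpart in a knockout list.

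The members with the most WT reads were within 1.5-fold of WT in each line. In the *ORC1Δ* table, the member in an intron of MED16, a Mediator subunit gene (chr19:877545-879898), had 2122 WT and 1972 *ORC1Δ* reads, and its log2 folds were −0.17, −0.17, and −0.15. At BFSP2, which encodes a lens filament protein, a pair of members counted as a single row had 1696 WT and 1882 *ORC1Δ* reads (0.09, −0.06, and −0.18). The member at chr16:46389645-46391143, in which 50.9% of 50-mers are repeated in hg38, had 1459 and 1811 reads (0.25, 0.09, and −0.09). A member in an intron of ITPK1, an inositol phosphate kinase gene (chr14:93058307-93060128), had 1389 and 1478 reads (0.03 and 0.04 in *ORC1Δ* and *ORC2Δ* cells).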

How the data were processed

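SNS-seq origins of WT, *ORC1Δ*, *ORC2Δ*, and *ORC5Δ* HCT116 cells were used as deposited. The submitters' processing notes name Trim Galore 0.6.4, Bowtie, MACS2, and bedtools with GRCh38 (hg38). The authors intersected the peaks of 2 replicates into a list of positions per line, with no score. They also deposited 3 tables of raw read counts per origin, each of WT and a knockout line with replicates merged. The counting tool and the treatment of duplicates and of reads with several matches are not given in the sources used here.

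Members were found on chromosomes 1 to 22 with Python 3.11.15, pandas 2.3.3, and pysam 0.24.0. Counts were scaled to RPM by the total reads of the line in the table, and 1.5-fold in RPM was called higher or lower, the threshold of the study's methods. Intervals are 95% Wilson for shares and exact Clopper-Pearson for folds. CpG islands were over 200 bp with at least 50% GC and an observed over expected ratio above 0.6, and genes were from GENCODE release 44. The calls were tested on simulated counts. Alternatives covered gap and run limits, scaling (edgeR 4.0.16), GC content, thresholds, and regions.

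Named runs were the 6 with the most members, the 3 most closely packed, the 2 highest and 2 lowest folds per line among runs with at least 500 reads, and the 3 with the fewest and the 3 with the most kept members. Named members were the 3 highest and 3 lowest in all lines and the 5 with the most WT reads. The remaining members past 1.5-fold in all lines were named after their values were seen. Some runs and sequences that these rules chose are not reported here. The members and lists were chosen with earlier results of these data known.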

Additional observations from a re-analysis of the deposited data

Results flagged for a closer look

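The same rule gave runs in data the comparisons do not use. Chromosome X held 4 runs with 23 origins, of 287 WT origins there. Outside chromosomes 1 to 22 there were 12 runs with 96 origins in all, and the largest, on an unlocalized contig of chromosome 22, held 20 origins in 50.9 kb.

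In 10 of 410 runs the counting intervals lay on opposite sides of 0 in different lines, and 2 of them are among the runs named here. The difference between the lines was not tested, since the tables hold no replicates. The SYT3, C19orf81, SHANK1, and CLEC11A run had log2 folds of −0.07, 0.06, and 0.03 in the *ORC1Δ*, *ORC2Δ*, and *ORC5Δ* lines, beside medians of −0.06, −0.01, and 0.0043 for the other WT origins within the surrounding 5 Mb, and its *ORC1Δ* fold was 0.077 after correction for GC content. The run at chr7:466373-481678, in no protein-coding gene, had −0.74, 0.26, and 0.02, beside medians of −0.62, −0.03, and −0.04 in its surroundings.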

How the results depend on the processing

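No paired analysis was possible because the tables merge the replicates, and no replicate could be left out for the same reason. Of the alternatives, those below moved a value, and the cause was not tested. Gaps of 5 kb or less gave 46 runs and 257 members, gaps of 20 kb or less 1219 and 9552, gaps below the WT median 787 and 5486, runs of 4 or more 874 and 4440, and runs of 8 or more 62 and 639.

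With gaps of 20 kb or less, counterparts were 79.3%, 89.0%, and 92.4% (75.2% in all 3), CpG islands 20.8%, start sites 15.9%, G-quadruplex motifs 63.7%, GC content 58.6%, and absolute skew 0.341. *ORC1Δ* had 2.04% higher, *ORC2Δ* 1.29% higher and 3.53% lower (median −0.070), and *ORC5Δ* 0.685% lower. Knockout lists gave 1294, 1773, and 2005 runs, overlapping 73.8%, 87.5%, and 91.4% of WT runs. With gaps of 5 kb or less, islands were 30.7%, start sites 20.2%, motifs 60.3%, width 501 bp, GC 59.7%, and skew 0.377. *ORC1Δ* had 0.395% higher and 4.74% lower (−0.13), *ORC2Δ* 0% higher (−0.0049), and *ORC5Δ* 0% higher (−0.033). With runs of 8 or more, counterparts were 83.1% in *ORC1Δ*, 95.9% in *ORC5Δ*, and 81.2% in all 3, start sites 20.5%, motifs 70.6%, GC 60.8%, skew 0.359, *ORC1Δ* median −0.15, and *ORC2Δ* 1.59% lower (−0.025). With the gap limit scaled to each list, overlaps were 44.4%, 53.7%, and 45.4%, with 389 *ORC2Δ* and 342 *ORC5Δ* runs.

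Counts without scaling gave 4.91% lower in *ORC1Δ* (−0.11), 4.20% higher and 0.667% lower in *ORC2Δ* (0.18), and 4.30% higher and 0% lower in *ORC5Δ* (0.27), so those medians reversed. TMM gave −0.012 and 1 higher run in *ORC2Δ*, and size factors by median of ratios −0.011. Correction for GC content gave 2.14% lower in *ORC1Δ* (−0.013) with 1 run higher and 2 lower, 1.57% lower in *ORC2Δ* (0.0063, reversed) with 1 run higher, and −0.017 in *ORC5Δ*. Of the named runs whose counting interval excluded 0, it turned the *ORC1Δ* fold at SYT3 and SHANK1 to 0.077, ADGRB1 0.16, SPTBN4 0.0078, KDELR1 0.042, and SIGIRR 0.11. Subtraction of the local median, added after seeing the data, gave 3.31% higher and 1.95% lower in *ORC1Δ* (−0.015) with 2 runs higher and 0 lower, 0.980% lower in *ORC2Δ* (0.025, reversed) with 1 run lower, and 0.0053 in *ORC5Δ* (reversed). Of the same folds, it turned those in *ORC1Δ* at ADGRB1 to 0.035 and SIGIRR to 0.11, and those in *ORC2Δ* at GAS6 to 0.12 and chr8:95211770-95239093 to 0.046, and signs also changed where the interval held 0.

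A 2-fold threshold left 0.117% higher and 0.585% lower in *ORC1Δ*, 0.0784% and 0.627% in *ORC2Δ*, and 0% and 0% in *ORC5Δ*. The median over rows of a run gave 7 lower runs in *ORC1Δ* and −0.0096 at SLURP1 and LY6D. Loops up to 12 bases gave motifs in 86.7%, the stricter island 16.8%, and start sites within 2 kb 22.6%. Spans widened by 10 kb held 202, 318, and 312 knockout-only origins. Members took 9.07% and 8.76% of WT reads in the *ORC2Δ* and *ORC5Δ* tables. Without chromosome 19, islands were 22.5%, start sites 15.3%, motifs 65.4%, GC 59.8%, and skew 0.343. Without the first 20 Mb of chromosomes 2 and 6, the first 65 Mb of chromosome 5, and chromosomes 8 and 13, 1.61% were lower in *ORC2Δ*.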
